A study of Mus musculus with 11 samples.

Results

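Adhesion G protein-coupled receptors (adhesion GPCRs) carry a long extracellular part joined to the membrane-spanning part of a G protein-coupled receptor. Most are cleaved at a site close to the membrane, and the newly exposed end of the membrane part can act as a tethered ligand once the extracellular part binds a neighbouring cell or the matrix. In endothelium and epithelium, members of this class are known for roles in adhesion, migration, and the barrier between compartments. The genes described here are *Adgrg1*, *Adgrg3*, and *Adgrl4* among the genes listed for HaCa4 cells, and *Adgrg2* among the genes listed for lymphatic endothelial cells (LECs). They were taken by gene symbol and are 4 of the 458 genes listed for either cell line. Of 30 mouse adhesion GPCR genes, flamingo cadherins included, 3 were listed for HaCa4 and 1 for LECs. The other 26 were not analysed here, and no member was listed for both cell lines.

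The data were 11 bulk RNA-seq libraries of mouse cell lines. HaCa4 is a skin squamous carcinoma line, and the LECs (imLEC) are conditionally immortal cells that carry the H-2Kb-tsA58 transgene, which gives a thermolabile SV40 large T antigen under permissive culture. HaCa4 control (n = 2) and LEC control (n = 3) were single cultures. HaCa4-sorted (n = 3) and LEC-sorted (n = 3) were separated by FACS after 24 h of co-culture of both lines, with the dye CFSE in the cancer cells and an antibody to CD31, the protein of *Pecam1*, on the LECs. The methods describe sorting for co-cultured cells, so the effects of co-culture and of sorting cannot be told apart. More than 1 LEC clone was used in the study, and the clone behind each library is not given in the sources used here.

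Levels are in TPM, transcripts per 1000000, scaled for transcript length and to a fixed total per library, so that they can be set side by side between genes. The listed genes, 290 for HaCa4 and 191 for LECs, made up between 1.84% and 3.85% of each library's total TPM. TPM keeps no record of read numbers, so the depth is unknown and precision rests on the spread between libraries. The genes are a selection by the authors. The LEC list matches the set the paper calls deregulated in number and direction, with 127 higher and 64 lower means in LEC-sorted. A second test of such a list at the same thresholds gives no independent support. The HaCa4 list is longer than the deregulated set the paper reports for HaCa4. How the HaCa4 genes were chosen is not given in the sources used here, so shares and ranks hold within each list only. The libraries of both groups did not overlap in 96.6% of the HaCa4 genes (63.1% higher and 33.4% lower in HaCa4-sorted) and in 96.9% of the LEC genes (63.9% higher and 33.0% lower in LEC-sorted), so that a lack of overlap in a member carries little weight. In bulk samples, fewer cells of a type and less RNA per cell cannot be told apart. Of the defining keratinocyte markers only *Dsg3*, a desmosomal cadherin, was listed for HaCa4, with 12.73 and 10.16 TPM for the controls against 6.53, 8.25, and 5.43 TPM for the sorted replicates (adjusted p = 0.0899 from limma). None of the defining endothelial markers was listed for LECs.

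*Adgrg1* encodes a receptor known as GPR56, which binds collagen III and transglutaminase 2. It was the most abundant of the 3 adhesion GPCRs in HaCa4 cells, with 1.38 and 0.89 TPM for control replicates 1 and 2 against 2.35, 4.07, and 2.59 TPM for sorted replicates 1 to 3. Every sorted library lay above both controls, and replicate 2 was highest. Group means were 1.14 ± 0.35 TPM (SD, n = 2) for the controls and 3.0 ± 0.93 TPM (SD, n = 3) after sorting, a ratio of 2.65. On the log2(TPM + 1) scale, which understates changes at low levels, the difference was 0.89 (standard error 0.42, 95% interval -0.12 to 1.91). It missed the thresholds of an absolute log2 difference of 0.5 and an adjusted p of 0.05, with an adjusted p of 0.103 from limma.

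*Adgrg3* encodes GPR97, a receptor known from granulocytes and from work on the migration of lymphatic endothelial cells. Both HaCa4 controls were listed at 0, and sorted replicates 1 to 3 held 0.18, 1.24, and 0.45 TPM. The gene was thus below *Adgrg1* in every library, and the sorted libraries spanned a 6.89-fold range. The log2(TPM + 1) difference was 0.65 (standard error 0.37, 95% interval -0.25 to 1.55, adjusted p = 0.147 from limma).

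*Adgrl4* encodes ELTD1, a receptor of endothelial cells with a role in vessel sprouting. It was also listed at 0 in both controls, and the sorted replicates 1 to 3 had 0.08, 1.09, and 0.33 TPM. Replicate 2 again stood above replicate 3 and replicate 1 was lowest, a 13.6-fold range (12.8 to 14.6 with rounding to 2 decimals). The log2(TPM + 1) difference was 0.53 (standard error 0.37, 95% interval -0.37 to 1.43, adjusted p = 0.212 from limma). Because both controls were listed at 0, no fold change is given for *Adgrg3* or *Adgrl4*, and their differences depend on the pseudocount.

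**Figure D1:**
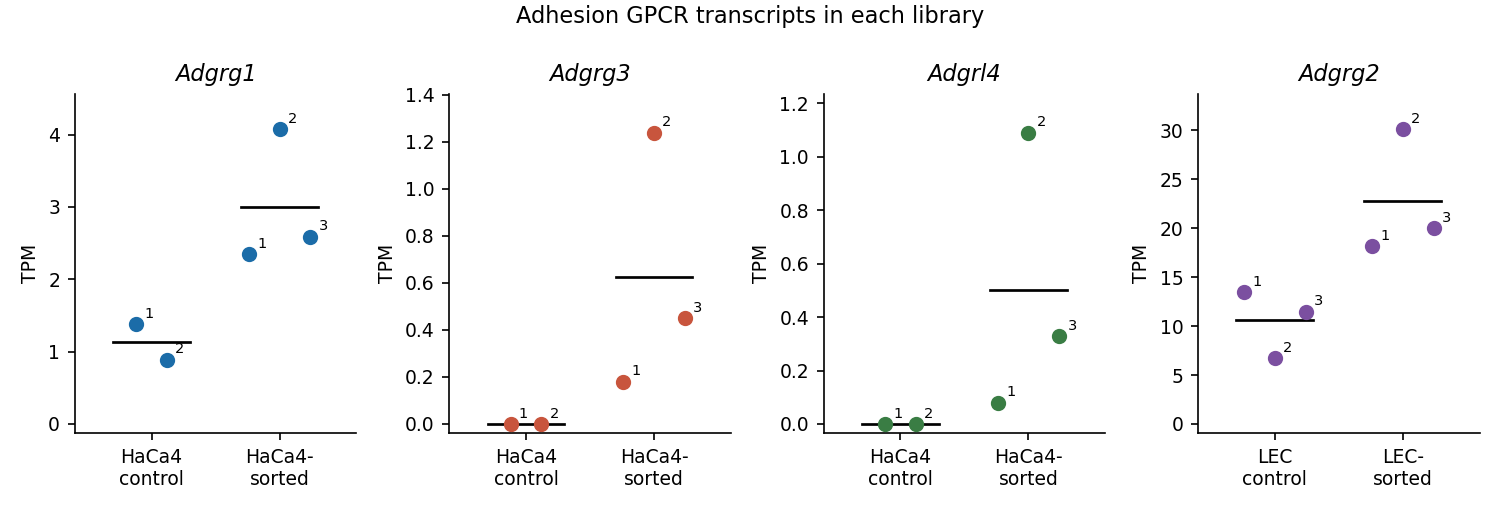
TPM of the 4 adhesion GPCR genes (vertical axes, one scale per gene) in each library, with control and sorted groups of the cell line on the horizontal axis. Points are libraries with their replicate numbers and bars are group means. *Adgrg3* and *Adgrl4* are at 0 in both HaCa4 controls, and sorted replicate 2 is the highest library for all 4 genes.

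None of the 3 HaCa4 members passed the thresholds, where 30.0% of the 290 listed genes did, 46 (15.9%) being upregulated and 41 (14.1%) downregulated. That number of 87 genes was 194 without HaCa4-sorted replicate 1, 6 without control replicate 1, and 0 without either control replicate 2 or HaCa4-sorted replicate 3, where 70 and 126 genes had an unadjusted p under 0.05 in limma. In HaCa4-sorted the order of mean levels was *Adgrg1*, *Adgrg3* at 0.62 ± 0.55 TPM (SD, n = 3), and *Adgrl4* at 0.50 ± 0.53 TPM (SD, n = 3). The last pair differed by less than the spread between libraries, although *Adgrg3* was the higher of both in each library. Among the 290 genes, *Adgrg1* ranked 197 by mean TPM and 117 by log2 difference. *Adgrg3* ranked 273 and 162, and *Adgrl4* ranked 277 and 171, so both were among the least abundant genes of the list.

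Single libraries weighed on these values. Without HaCa4-sorted replicate 1, the library with the lowest levels, *Adgrg3* and *Adgrl4* passed the thresholds. Their log2 differences were 0.85 and 0.74, with adjusted p-values of 0.0307 and 0.0421 from limma. In that fit 194 of the 290 listed genes passed, 146 of them upregulated, so these calls were those of most of the list. Without HaCa4-sorted replicate 2, the log2 differences of *Adgrg3* and *Adgrl4* were 0.39 and 0.26, and that of *Adgrg1* was 0.71. *Adgrg1* did not pass in either case (adjusted p = 0.0545 and 0.177 from limma). Over all alternatives the adjusted p from limma ran from 0.0545 to 0.585 for *Adgrg1*, from 0.0307 to 0.496 for *Adgrg3*, and from 0.0421 to 0.562 for *Adgrl4*.

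The libraries in which the receptors were high were also high in transcripts of endothelial marker genes. The paper reports some of these, *Kdr*, *Flt4*, and *Angpt2*, as upregulated in HaCa4 cells co-cultured with LECs. It also measured angiogenesis genes in sorted cancer cells by quantitative PCR. Which cells the marker transcripts came from was not tested. Of 47 endothelial marker genes, 24 were listed for HaCa4, and the mean of each of these 24 was higher after sorting. The same held for 192 of all 290 listed genes, and a marker at 0 in both controls could only be higher. Of the 24 markers, *Emcn* and *Plvap* passed the thresholds (8.33%), beside 15.9% of all listed genes that passed as upregulated. Summed over the 24 markers, the controls held 5.79 and 4.37 TPM and sorted replicates 1 to 3 held 23.4, 314, and 140.0 TPM. Of 7 defining markers, *Cdh5*, *Flt4*, and *Emcn* were at 0 in both controls, *Lyve1*, *Pecam1*, and *Tie1* were at 0 to 0.23 TPM, and *Prox1* was not analysed here. Of 40 keratinocyte markers, 4 were listed, and their sum was 320.86 and 409.94 TPM for the controls against 246.56, 233.48, and 275.7 TPM for sorted replicates 1 to 3. Among them *Krt8* and *Krt6b* fell, *Krt19* rose, and *Dsg3* did not pass. *Krt8* made up most of each sum, with 283.8 and 380.41 TPM for the controls and 220.13, 205.34, and 238.24 TPM for sorted replicates 1 to 3. The keratinocyte sum thus mainly follows this gene. The median log2 difference of the 24 endothelial markers was 1.51, beside 0.74 over all listed genes.

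All 24 markers shared the order of *Adgrg1*, *Adgrg3*, and *Adgrl4*, with sorted replicate 2 highest and replicate 1 lowest. This order was found in 121 of the 290 listed genes (41.7%) and in 103 of the 192 with a higher mean in HaCa4-sorted (53.6%). The receptors differed in how closely they followed the markers. The summed markers were 13.4 times as high in sorted replicate 2 as in replicate 1, and the ratio of single markers ran from 3.75 to 81.0 with a median of 15.6. The ratio was 13.6 for *Adgrl4*, 6.89 for *Adgrg3*, and 1.73 for *Adgrg1*, which lay below the range of the markers.

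**Figure D2:**
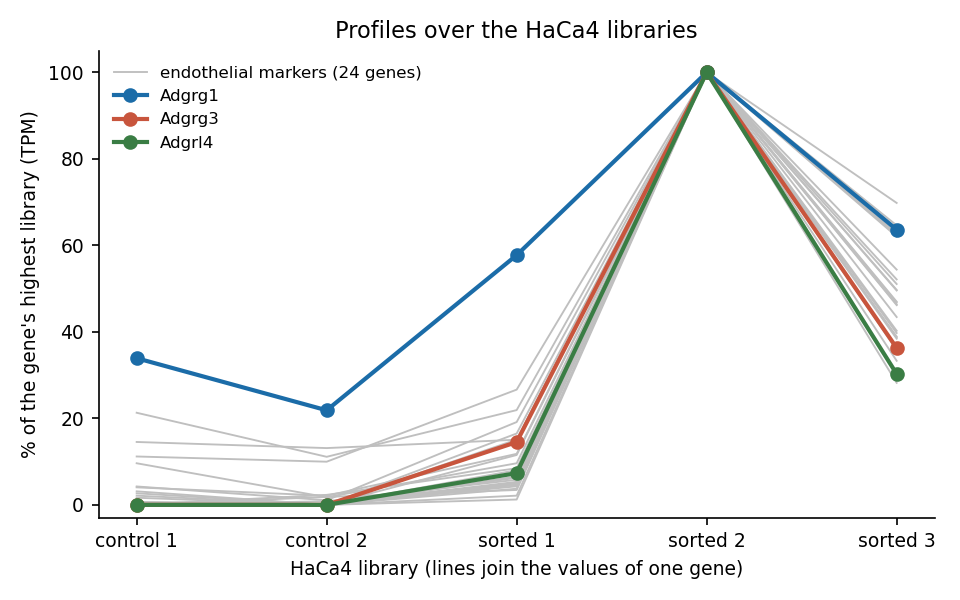
Level in each HaCa4 library (horizontal axis) as a percentage of the gene's highest library (vertical axis), for *Adgrg1*, *Adgrg3*, *Adgrl4* (colours) and 24 endothelial markers (grey). *Adgrg3* and *Adgrl4* run within the bundle of markers, and *Adgrg1* lies above it in both controls and in sorted replicate 1.

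Set against the markers, *Adgrl4* had 3.42, 3.48, and 2.36 TPM per 1000 TPM of summed endothelial markers in sorted replicates 1 to 3. The corresponding values were 7.70, 3.95, and 3.21 for *Adgrg3*. For *Adgrg1*, the level above the control mean came to 52.0, 9.36, and 10.4 TPM per 1000 TPM. Its excess in replicate 1 was thus not in proportion to the markers. In all of these values the marker sums kept their control level of 5.79 and 4.37 TPM. This weighs most on sorted replicate 1, where the sum was 23.4 TPM, so its values are too low beside those of replicates 2 and 3. *Kdr*, the gene of VEGF receptor 2, was listed for both cell lines and gives a level across them, although the values of each line were listed separately and *Kdr* itself was lower in LEC-sorted than in LEC control. Its TPM in HaCa4-sorted replicates 1 to 3 was 0.149%, 1.85%, and 1.15% of its mean in LEC-sorted. The part of endothelial RNA in the levels of the 3 receptors was not tested, and their levels in LECs were not analysed here.

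**Figure D3:**
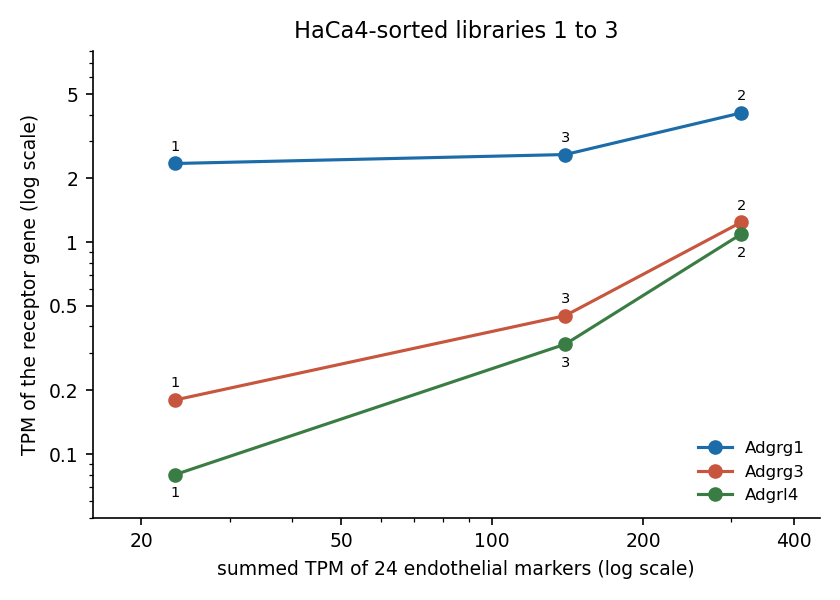
TPM of each receptor gene (vertical axis, log scale) against the summed TPM of 24 endothelial markers (horizontal axis, log scale) in HaCa4-sorted libraries, numbered by replicate. *Adgrl4* and *Adgrg3* rise over the range of the markers from 23.4 to 314 TPM, whereas *Adgrg1* stays between 2.35 and 4.07 TPM.

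The genes with the profile most like each receptor were sought by dividing every gene by its highest library and taking the largest gap in any of the 5 HaCa4 libraries. For *Adgrl4* these were *Fam174b* (gap of 0.451 percentage points), *Lyve1*, a hyaluronan receptor of lymphatic endothelium (3.04 points), and *Grap* (3.89 points). *Fam174b* was listed at 0 for both controls, and its sorted replicates had 0.13, 1.71, and 0.51 TPM. At levels this low, rounding to 2 decimals alone can move the percentages by about as much as the gap of *Fam174b*. For *Adgrg3* the genes most alike were *Hmcn1*, *Itga4*, and *Tie1*, the last an endothelial receptor tyrosine kinase, with gaps of 2.25, 3.41, and 4.05 points. *Hmcn1* reached only 0.47 TPM, so rounding weighs on its gap too. The profile of *Adgrg1* had no match as close. *Cyp1b1* and *Mertk* came nearest, with gaps of 11.6 and 18.8 points, and both were measured in the controls, at 3.83 and 2.99 TPM for *Cyp1b1* and at 1.82 and 1.59 TPM for *Mertk*.

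*Adgrg1* and *Adgrg3* are neighbours. In GRCm38.p6, *Adgrg1* (Entrez 14766) lies on the plus strand of chromosome 8 from 94974756 to 95014208 and *Adgrg3* (Entrez 54672) from 95017113 to 95045250 on the same strand, 2904 bases further on. RefSeq places the lncRNA *Gm51544* in that stretch, and GENCODE M21 places no gene there. In spite of this position their profiles differed, since *Adgrg1* was present in both controls and *Adgrg3* was at 0. *Adgrl4* (Entrez 170757) lies on chromosome 3 from 151437882 to 151545081, and no other GENCODE M21 gene overlaps any of these 3. Of the stretches of 50 bases in their transcripts, 0% were shared with other genes for *Adgrg1* and *Adgrl4* and 0.128% for *Adgrg3*.

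Sequences before a RefSeq start site of *Adgrl4* and of *Adgrg3* are shown because both genes were at 0 in the controls and appeared in the same sorted libraries. A level of 0 in both controls was not particular to them, since 44 of the 290 listed HaCa4 genes (15.2%) had it. A set of 5 short motifs was searched on both strands in the 250 bases before those RefSeq start sites for which a promoter sequence was at hand. For *Adgrl4* this is the first base of the gene, whereas the start sites of *Adgrg3* (95017692), *Adgrg2* (160390690), and *Adgrg1* lie inside the loci given here, and the bases before the outermost ends of these 3 genes were not searched. Forms of the site bound by ETS factors, a family active in endothelial genes, were CCGGAA, found in 12% of all promoters, then CAGGAA, found in 25.7%, and lastly AGGAAG, found in 29.5%. The AP-1 site was given by TGACTCA and the TATA box by TATAAA, which 12.4% of promoters held. Capitals mark the ETS-type motifs, of which the second and the third can overlap. The *Adgrl4* sequence is chr3:151437632-151437881 (plus strand, positions -250 to -1), and that of *Adgrg3* is a stretch of 30 bases at chr8:95017648-95017677 (plus strand, positions -44 to -15), both from RefSeq on GRCm38.p6 and free of GENCODE M21 exons.
Adgrl4: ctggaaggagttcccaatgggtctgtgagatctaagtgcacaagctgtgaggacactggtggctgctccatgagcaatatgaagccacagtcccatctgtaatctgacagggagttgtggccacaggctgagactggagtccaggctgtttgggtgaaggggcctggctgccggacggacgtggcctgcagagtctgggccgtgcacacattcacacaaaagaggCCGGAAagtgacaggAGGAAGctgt
Adgrg3: tCAGGAAGaacgagaaagaggccaCAGGAA

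In *Adgrl4* the motif CCGGAA began at -25 and the motif AGGAAG at -10. In *Adgrg3* the motif CAGGAA began at -43, where it overlapped an AGGAAG at -42, and again at -20. At least 1 of these 3 motifs was found in 48.8% of 32851 RefSeq promoters of the same length, so that a match is common. *Adgrg1* has a pair of start sites with RefSeq windows. The window before 94977109 held 1 CAGGAA, at -240, and the one before 94984399 held none of the 3 motifs and TGACTCA at -141 and -59. TGACTCA was found in 4.46% of all promoters. The windows of *Adgrg1*, *Adgrg3*, and *Adgrl4* held between 4 and 7 CpG, and that of *Adgrg2* held 26, with a GC content of 75.6%, at or above that of 96.7% of promoters. None of the 5 motifs was found in the *Adgrg2* window, and TATAAA was found in none of the windows searched.

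In LECs, *Adgrg2* was higher after co-culture. *Adgrg2* encodes GPR64, a receptor known from the epididymis, where it takes part in fluid transport. LEC control replicates 1 to 3 held 13.49, 6.75, and 11.48 TPM, and LEC-sorted replicates 1 to 3 held 18.18, 30.09, and 19.98 TPM. The lowest sorted library lay above the highest control, but the range within each group was wider than the gap between them. Group means were 10.6 ± 3.46 TPM (SD, n = 3) for the controls and 22.8 ± 6.42 TPM (SD, n = 3) after sorting, a ratio of 2.15. The log2(TPM + 1) difference was 1.05 (standard error 0.31, 95% interval 0.33 to 1.78), and the gene passed the thresholds with an adjusted p of 0.0134 from limma.

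The thresholds were passed by 96.3% of the 191 listed LEC genes, 122 of them upregulated (63.9%) and 62 downregulated (32.5%). The call for *Adgrg2* is thus that of nearly all of the list. As the list had been selected on the same libraries, passing again adds no independent support. *Adgrg2* ranked 71 by log2 difference and 126 by mean TPM, and its difference was close to the median of 0.87 over the list. All LEC libraries were also scaled to 1 common median of the listed genes, which shifted the LEC differences by a median of -0.61. The *Adgrg2* difference was then 0.46 and no longer passed (adjusted p = 0.216 from limma). That scaling left 46 upregulated and 64 downregulated genes. In the 6 fits that each left out 1 library the gene passed, with differences between 0.79 and 1.24. The highest adjusted p of these, 0.0491 from limma, came without LEC-sorted replicate 2, and over all alternatives the adjusted p from limma ran from 0.0114 to 0.216.

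*Krt8*, a keratin of simple epithelia and abundant in HaCa4 cells, was the only one of 40 keratinocyte markers listed for LECs. The 3 controls were listed at 0 and LEC-sorted replicates 1 to 3 had 0.19, 2.19, and 0.89 TPM, which is 0.0859%, 0.99%, and 0.402% of its mean in HaCa4-sorted, values of separate lists. After sorting, *Krt8* and *Adgrg2* both went from replicate 2 through replicate 3 to replicate 1 in descending level, as did 53 of the 191 genes (27.7%). Of 47 endothelial markers, 4 were listed for LECs, and *Kdr*, *Lyl1*, and *Clec14a* fell while *Nts* rose. Their sum was 271, 378, and 272 TPM for LEC control replicates 1 to 3 against 229, 262, and 247 TPM for LEC-sorted replicates 1 to 3. The part of HaCa4 RNA in the level of *Adgrg2* was not tested, and its level in HaCa4 cells was not analysed here. The *Adgrg2* profile was most like those of *1110008P14Rik*, *Slc4a7*, a bicarbonate transporter, and *Sod2*, mitochondrial superoxide dismutase, with gaps of 13.9, 17.2, and 17.8 percentage points over the 6 LEC libraries.

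*Adgrg2* (Entrez 237175) lies on the plus strand of chromosome X from 160390318 to 160498076. It overlaps the antisense gene *Gm15241*, whose exons cover 137 of the 5278 exonic bases of *Adgrg2* (2.60%). Whether reads were counted by strand is not given in the sources used here, so reads in that stretch cannot be told apart.

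Other receptors and signalling genes were followed for comparison. Of the 83 genes on a list of other GPCRs and the accessory *Ramp2*, 4 were listed for HaCa4 and 1 for LECs. In HaCa4 cells *F2rl1*, the protease-activated receptor PAR2, was the one that passed. It had 33.60 and 38.38 TPM for the controls against 68.65, 46.99, and 68.97 TPM for the sorted replicates. The log2 difference was 0.74 (adjusted p = 0.0405 from limma). This is 25.0% of the 4 receptors, where 30.0% of all listed HaCa4 genes passed and 15.9% passed as upregulated. Without HaCa4-sorted replicate 3, or in limma without the trend, 0 listed HaCa4 genes passed, so this call was not kept there. *S1pr1*, a sphingosine-1-phosphate receptor of endothelium, had 0.11 and 0.04 TPM as controls against 0.79, 16.58, and 7.75 TPM once sorted (adjusted p = 0.0627 from limma). It also belongs to the endothelial markers above and has their order, which 41.7% of all listed HaCa4 genes shared. The endothelin receptor *Ednra* and the metabolite receptor *Hcar2* had lower means, with log2 differences of -0.69 and -0.66, and did not pass.

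In LECs, *Lpar1*, a receptor for lysophosphatidic acid, rose by a log2 difference of 0.85 (adjusted p = 0.00969 from limma). *Gpr84* and *P2ry10b* are GPCRs outside the list, named after their values were seen. *Gpr84* rose in LECs, where the controls held 1.48, 4.41, and 2.41 TPM and the sorted replicates 15.01, 21.64, and 14.37 TPM, a log2 difference of 2.31 (adjusted p = 0.00211 from limma). *P2ry10b* had 2.52 and 1.77 TPM as HaCa4 controls against 7.67, 4.37, and 5.45 TPM once sorted, where replicate 1 was highest (adjusted p = 0.0625 from limma).

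Of 33 genes for ligands and partners of adhesion GPCRs, 2 were listed for HaCa4, 0 for LECs, and none passed. *Thy1*, a surface protein bound by an adhesion GPCR of leukocytes, was listed at 0 for the controls, against 0.34, 4.58, and 2.53 TPM once sorted (adjusted p = 0.0794 from limma). *Tenm4*, a teneurin of the family that binds latrophilins, had 16.18 and 23.29 TPM as controls against 13.05, 12.94, and 14.25 TPM once sorted, with a log2 difference of -0.50 (adjusted p = 0.0955 from limma). *Baiap2*, named for its binding to the adhesion GPCR BAI1, stood outside the list and was picked after its values were seen. It fell in LECs, where the controls held 52.30, 52.75, and 47.06 TPM and the sorted replicates 29.40, 32.19, and 35.96 TPM, a log2 difference of -0.63 (adjusted p = 0.00951 from limma). Lower calls were made for 32.5% of all listed LEC genes.

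Of 46 genes for G protein signalling and its regulators, 2 were listed for each cell line. Neither passed in HaCa4. *Gng11*, a G protein gamma subunit, was listed at 0 for the controls, against 0.31, 6.39, and 5.28 TPM once sorted. Both passed in LECs, where 96.3% of all listed genes did, and they went in opposite directions. *Rgs16*, a regulator that shortens G protein signals, rose by a log2 difference of 1.41, with 282.16, 106.48, and 161.60 TPM for the controls against 578.96, 470.33, and 338.18 TPM for the sorted replicates (adjusted p = 0.00969 from limma). *Gna11*, a G alpha subunit of the Gq class, had 110.67, 104.24, and 100.18 TPM as controls against 69.12, 69.24, and 82.53 TPM once sorted, a log2 difference of -0.51 (adjusted p = 0.0128 from limma).

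**Figure D4:**
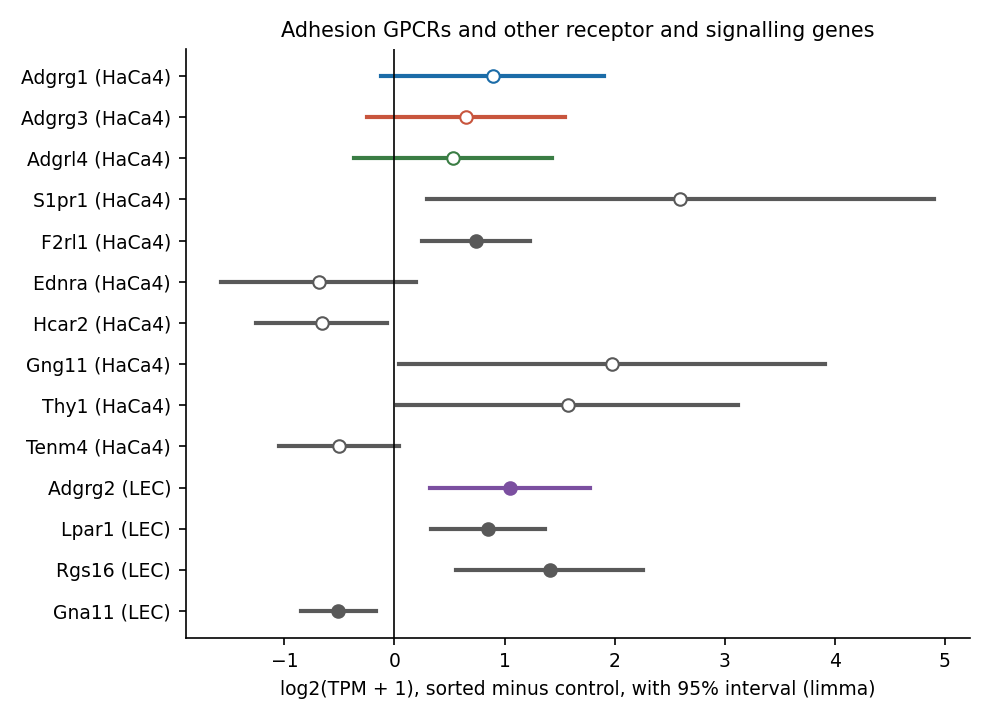
Difference in log2(TPM + 1) between sorted and control libraries (horizontal axis) with 95% intervals from limma, for the 4 adhesion GPCRs (colours) and other receptor, partner, and signalling genes named in the text (grey). Filled points passed the thresholds. The intervals of *Adgrg1*, *Adgrg3*, and *Adgrl4* include 0, and that of *Adgrg2* runs from 0.33 to 1.78.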

How the data were processed

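RNA from 11 libraries was sequenced on a BGISEQ platform. Per the methods and the submitters' processing notes, SOAPnuke was used by the authors for read filtering, HISAT2 2.0.4 for alignment to GRCm38.p6, and DESeq2 for differential expression. The TPM values the authors deposited have 2 decimals, with 1 value for each gene in each library and no pooled replicates. The tool that gave TPM is not given in the sources used here. Libraries were grouped by their labels, and the second HaCa4 control, labelled replicate 2, carries the number 3 in its header. Separate cultures are not stated for the replicates, so p-values measure the spread between these libraries, which may be technical.

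Each sorted group was compared with the control of its line by limma 3.58.1 in R 4.3.3 on log2(TPM + 1), with a mean-variance trend and no block, two-sided, and adjusted by Benjamini-Hochberg over all listed genes of that line. A call needed an adjusted p no higher than 0.05 together with an absolute log2 difference of 0.5 or more. The step was tested on simulated data. Because the listed genes had been selected by the authors on these samples, the calls are not independent evidence. The members, gene lists, and motifs were chosen with earlier results of these data known. All 4 members and every other listed gene of the family are named, with the 3 genes most alike and, per list, up to 4 examples, called genes first and then those with the highest mean. Some genes that this rule names are not reported here. Coordinates and promoters are from RefSeq, matched by Entrez ID for all 4 members, and transcripts from GENCODE M21, both GRCm38. Alternatives were pseudocounts of 0.1 and 5 TPM, filters on a mean of at least 1 or 10 TPM, scaling to the same median, no trend, a replicate block, a log2 threshold of 1, and leaving out each library. Tables and plots used Python 3.11.15, pandas 2.3.3, and matplotlib 3.10.9.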

Additional observations from a re-analysis of the deposited data

How the results depend on the processing

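The 4 receptor genes had a positive difference under every alternative that could be run. For *Adgrg3* and *Adgrl4*, at 0 in both controls, no other sign was possible, so this holds information for *Adgrg1* and *Adgrg2* only. *Adgrg1* passed the thresholds under none of these alternatives. *Adgrg3* and *Adgrl4* passed only without HaCa4-sorted replicate 1, at 0.85 and 0.74, where 194 of the 290 listed genes passed. Leaving out 1 library in turn gave log2 differences of 0.71 to 1.06 for *Adgrg1*, 0.39 to 0.85 for *Adgrg3*, and 0.26 to 0.74 for *Adgrl4*. *Adgrg2* lost its call only with libraries scaled to the same median (0.46). That median was taken over the listed genes alone, and 127 of these 191 had a higher mean in LEC-sorted. Such scaling takes off part of the shift that the list shares, here a median of -0.61. It cannot tell a difference between libraries from the selection of the genes. *Adgrg3* and *Adgrl4* were removed by the filter at 1 TPM and all 3 HaCa4 members by that at 10 TPM. The pseudocount set the size of the differences of *Adgrg1*, *Adgrg3*, and *Adgrl4*, which were 1.32, 2.56, and 2.18 at 0.1 TPM and 0.38, 0.16, and 0.13 at 5 TPM. After scaling to the same median they were 0.35, 0.54, and 0.43. The number of HaCa4 genes past the thresholds was 177 and 33 with these pseudocounts, 145 after scaling (50 upregulated, 95 downregulated, with a median shift of -0.72), 39 at a log2 threshold of 1, and 0 in limma without the trend, where 161 had an unadjusted p under 0.05. It ran from 0 to 194 when 1 library was left out. It was 194 without HaCa4-sorted replicate 1, 6 without control replicate 1, and 0 without control replicate 2 or HaCa4-sorted replicate 3. Leaving out a control leaves the other one assumed to vary like the sorted libraries. For LECs the number was 110 after scaling and 95 at a log2 threshold of 1, and 165 to 177 without 1 library. With the replicate block 115 HaCa4 and 182 LEC genes passed and no member changed its call. With the second control numbered 3, an alternative chosen after seeing the data, 22 HaCa4 genes passed. The numbers were not taken as a pairing in the main fit, since the paper describes none. Deviations of same-numbered libraries correlated at 0.231 and 0.284 in HaCa4, the highest value for each control. With 2 controls the deviations mirror each other, so these values cannot decide whether the libraries were paired. In LECs the correlations were 0.23, 0.074, and -0.0189, and not every LEC library was closest to its own number. TPM carries no depth, so no floor can be set for values listed at 0.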
